A study of Mus musculus with 18 samples.

Results

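The circadian clock of the liver was examined in mouse RNA through 10 genes, Arntl, Npas2, Clock, Per1, Per2, Per3, Nr1d1, Nr1d2, Dbp and Ciart. They were listed by name, but earlier results of these data were known when the list was made. All 10 were among the 47729 genes of the deposited table, and all 10 were among the 12686 genes with a mean normalized count of at least 10, the genes that were tested. The livers came from ischemia-reperfusion (IR), in which the blood supply of the liver is interrupted and then restored, or from sham surgery. Per the labels, each surgery was done in 3 wild-type (Wt), 3 Il22-/- and 3 Il22bp-/- mice, which makes 9 IR and 9 sham samples. Il22 encodes the cytokine IL-22, and Il22bp the soluble protein that binds it. The table's columns carry IR or W with a number and no genotype, so every group below mixes the 3 genotypes. The 9 W columns were read as sham by elimination, because the 9 IR columns match the 9 IR samples and only 6 samples are wild type. The labels used here give no hour of sampling, time after reperfusion, sex or age. The hour at which the livers were taken and the surgery therefore cannot be told apart, and clock transcripts change with the hour.

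The clock is a loop of transcription and repression that runs in almost every cell and is strong in hepatocytes. BMAL1 (encoded by Arntl) pairs with CLOCK or NPAS2 and activates genes through E-box sequences, among them the Per, Cry, Nr1d, Dbp and Ciart genes. PER and CRY proteins, and CHRONO (encoded by Ciart), repress that pair. REV-ERB proteins (encoded by Nr1d1 and Nr1d2) repress Arntl, Npas2 and other genes through RORE sequences, on which ROR proteins activate. DBP, TEF and HLF activate genes through D-box sequences, on which NFIL3 represses. In the liver of an undisturbed mouse, Arntl and Npas2 peak at about the opposite time of day from Nr1d1 and Dbp.

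The promoters of 3 of these genes are shown because each holds the sequence of a different arm of this loop and because none of the 3 transcripts overlapped between the surgeries. Each window runs 5′ to 3′ on the gene's own strand, from 250 bases before to 50 bases after a RefSeq start on GRCm38.p6. Capitals mark the RORE core TAGGTCA in Arntl (chr7:113207261-113207560, plus strand), the D-box TTATGTAA in Per3 (chr4:151044616-151044915, minus strand) and the E-box CACGTG in Ciart (chr3:95882179-95882478, minus strand).
Arntl: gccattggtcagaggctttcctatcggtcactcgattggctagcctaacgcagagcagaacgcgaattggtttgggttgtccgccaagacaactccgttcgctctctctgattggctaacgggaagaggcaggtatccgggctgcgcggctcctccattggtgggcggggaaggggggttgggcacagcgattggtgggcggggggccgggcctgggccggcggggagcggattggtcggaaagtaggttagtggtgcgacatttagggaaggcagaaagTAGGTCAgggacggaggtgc
Per3: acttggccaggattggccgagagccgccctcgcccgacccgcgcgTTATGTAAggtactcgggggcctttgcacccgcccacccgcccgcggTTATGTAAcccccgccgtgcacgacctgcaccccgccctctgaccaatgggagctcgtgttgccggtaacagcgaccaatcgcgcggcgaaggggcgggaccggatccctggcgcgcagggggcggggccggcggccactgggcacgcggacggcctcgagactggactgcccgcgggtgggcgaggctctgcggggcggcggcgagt
Ciart: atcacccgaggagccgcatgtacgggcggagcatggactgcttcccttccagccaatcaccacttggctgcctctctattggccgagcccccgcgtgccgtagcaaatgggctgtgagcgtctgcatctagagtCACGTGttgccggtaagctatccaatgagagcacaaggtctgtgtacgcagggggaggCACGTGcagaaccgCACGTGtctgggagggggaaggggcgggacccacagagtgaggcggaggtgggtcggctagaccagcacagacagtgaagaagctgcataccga

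The RORE core of Arntl lay 30 bases after the start, the D-boxes of Per3 lay 205 and 158 bases before it, and the E-boxes of Ciart lay 116, 58 and 44 bases before it. Windows were found for 9 of the 10 genes, 13 windows in all, and Per2 had none. On both strands, the E-box CACGTG occurred in 2 of the 13 windows (Per1 and Ciart) and in 7.15% of all 32851 windows. The D-box TTATGTAA or TTACGTAA occurred in 1 of the 13 (Per3) and in 1.06% of all windows. TAGGTCA occurred in 1 of the 13 (Arntl, in 1 of its windows) and in 2.61% of all. CACGTT, an E-box variant, occurred in 1 of the 13 (Nr1d1) and in 4.68% of all. These are matches of letters and no binding was measured.

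The libraries held 10176617 to 12558179 reads assigned to genes in IR and 10716890 to 12763837 in sham. Sequencing depth was thus similar in both groups. Transcripts of the sex chromosomes differed between the surgeries. Summed Ddx3y, Eif2s3y, Kdm5d and Uty, which are Y-linked, reached 444 to 1034 normalized counts in 6 IR libraries and at most 2.07 in the other 3 IR libraries (IR3, IR6 and IR9) and in all 9 sham libraries. Xist, which is transcribed from an inactive X chromosome, was at 1751 or more in those same 3 IR libraries and in all 9 sham libraries, and at most at 11.5 in the other 4 IR libraries apart from IR5 and IR8. IR5 and IR8 held both Xist (542 and 964) and Y-linked transcripts (745 and 444). Results are therefore also given for the 3 IR libraries without Y-linked reads against all 9 sham libraries, and without IR5 and IR8, and both choices were made after the values had been seen. Hepatocyte markers were present in every library. Their sum over 7 genes had a lowest, median and highest value of 525820, 668332 and 880836 normalized counts in IR, and of 1901820, 2042810 and 2310250 in sham. Most of that sum was Alb, which averaged 523199 in IR and 1780990 in sham. Of these 7 genes, 1 was called higher (Hnf4a) and 5 lower in IR, with a median log2 difference of -0.61. Among all tested genes 76.0% were called in either direction. Neutrophil markers summed to 289.9, 1123 and 3863 (lowest, median and highest) in IR and to 49.7, 82.2 and 117 in sham over 7 genes. Of these 7, Retnlg and Mmp8 reached the level for testing only through IR, and Mpo (0.196 in IR and 0.597 in sham) and Ly6g (5.03 in IR and 0.238 in sham) did not reach it. The part of cell composition in the clock values was not tested, and in whole tissue fewer cells of a type and less RNA per cell cannot be told apart.

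Most clock genes differed between IR and sham livers, and they did so in both directions. With limma on log2(normalized count + 1), 4 of the 10 were higher in IR (Arntl, Npas2, Clock and Per1), 5 were lower (Per2, Per3, Nr1d2, Dbp and Ciart), and Nr1d1 was not called. Npas2 reached the level for testing only through its IR libraries. The calls use an adjusted p under 0.05 over all tested genes by the Benjamini-Hochberg method. By the same rule 38.3% of all tested genes were higher in IR, 37.7% were lower, and 76.0% differed in either direction, so the number of clock genes called is near the share among all genes. The sizes of the differences are given here beside those of all genes. An absolute log2 difference over 1 was seen in 7 of the 10 and in 32.7% of tested genes, and one over 2 in 6 of the 10 and in 7.91% of tested genes. The IR and sham libraries did not overlap for 7 of the 10, against 40.2% of tested genes. Earlier results were known when the genes were chosen, so these shares are a description and carry no test. When the libraries were scaled to equal totals, 5951 genes were higher and 3695 lower in place of 4860 and 4781, and the median of all genes moved up by 0.24. The 10 clock genes kept their calls under that scaling.

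**Figure D1:**
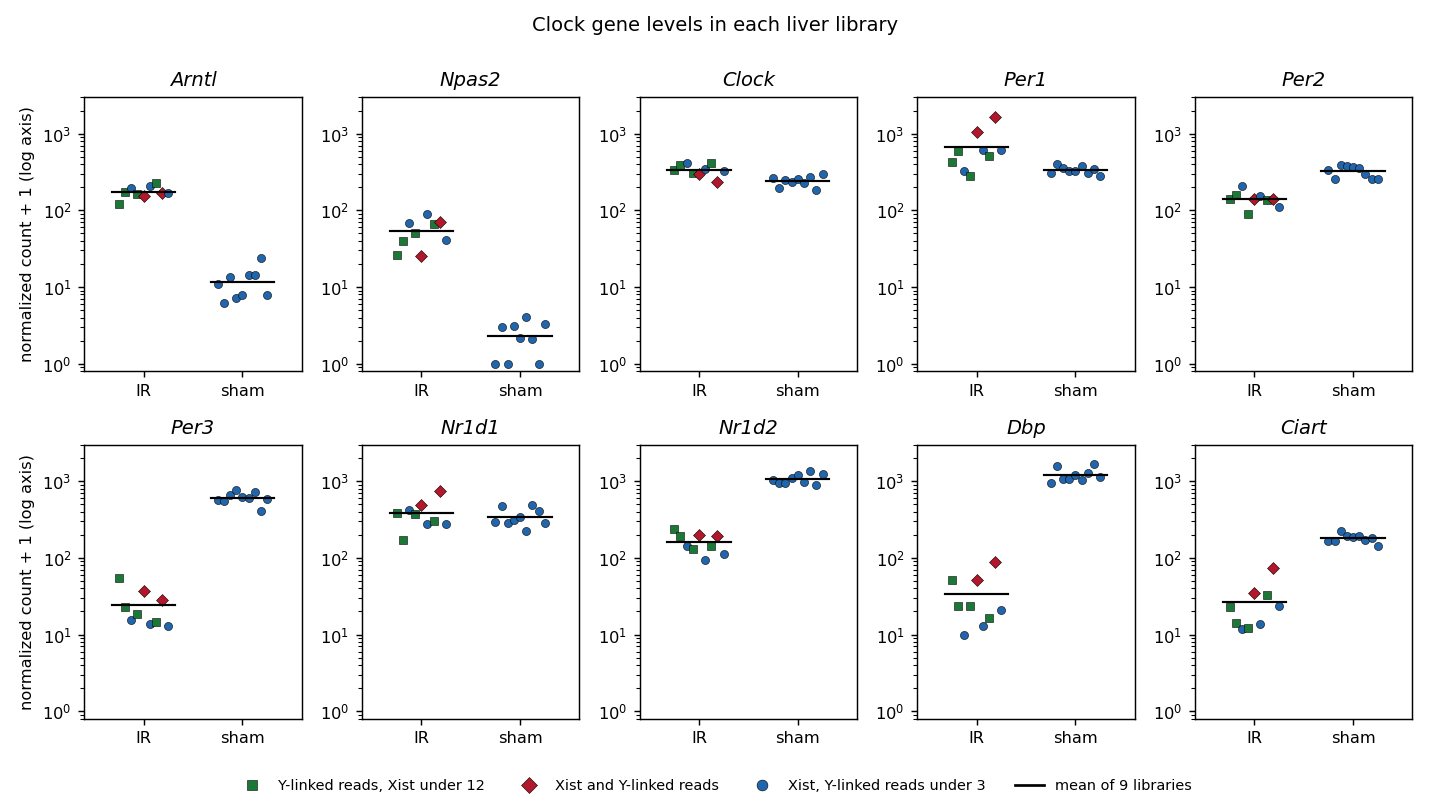
Normalized count + 1 of the 10 clock genes on a log axis, 1 panel per gene, with the 9 IR libraries left of the 9 sham libraries and a bar at each group's mean. Squares are libraries with Y-linked transcripts, diamonds those with Xist as well (IR5 and IR8) and circles those with Xist alone. The groups are apart for Arntl, Npas2, Per2, Per3, Nr1d2, Dbp and Ciart and overlap for Clock, Per1 and Nr1d1.

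The activating arm was higher in IR livers. Arntl (ENSMUSG00000055116, chromosome 7, 113207465 to 113314126, plus strand) had 119 in the lowest, 169.7 in the median and 223 in the highest IR library, against 5.11, 9.91 and 23.0 in sham livers. Every IR library lay above every sham library, with a wide gap between them. Arntl averaged 174 ± 30.9 in IR livers and 10.8 ± 5.60 in sham livers (SD, n = 9 each), a log2 difference of 4.0 ± 0.22 (SE; adjusted p = 2.68e-12), which is 16.0-fold on the log2(normalized count + 1) scale. It ranked 87 from the top of the 12686 tested genes. The sham level rested on 5 to 21 reads per library, and the IR level on 114 to 234.

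Npas2 (ENSMUSG00000026077, chromosome 1, 39193731 to 39363236, plus strand) encodes a partner of BMAL1 that can stand in for CLOCK. It was almost unread in sham livers and present in all IR livers. Its normalized counts were 24.3 in the lowest, 49.0 in the median and 89.1 in the highest IR library, against 0, 1.15 and 3.11 in sham livers. In reads, sham libraries held 0 to 3, with 3 of the 9 at 0 and 11 reads in all, whereas IR libraries held 24 to 97 and 515 in all. The ratio of the summed reads, scaled by the size factors, was 40.3, with a 95% exact interval of 22.3 to 81.2 that covers counting error only. The log2 difference was 4.59 ± 0.34 (SE; adjusted p = 2.19e-10), and at so low a sham level it depends on the pseudocount, with 2.38 at a pseudocount of 10 and 5.10 at 0.5.

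Clock (ENSMUSG00000029238, chromosome 5, 76209868 to 76304792, minus strand) encodes the usual partner of BMAL1. It was modestly higher in IR. Its normalized counts were 233 in the lowest, 334 in the median and 411 in the highest IR library, against 183, 246 and 296 in sham livers. The groups overlapped, since the lowest IR library lay below several sham libraries. The means were 339 ± 59.2 in IR livers and 241 ± 36.0 in sham livers (SD, n = 9 each), a log2 difference of 0.48 ± 0.11 (SE; adjusted p = 0.000667). Arntl and its partner Clock thus differed between the surgeries by very unequal amounts.

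The 3 Per genes, whose proteins hold the activators back, each behaved differently. Per1 (ENSMUSG00000020893, chromosome 11, 69095217 to 69109960, plus strand) is also switched on directly by stress hormones and cyclic AMP. It had 279.9 in the lowest, 596 in the median and 1629 in the highest IR library, against 284, 329 and 397 in sham livers. The IR libraries spread widely and overlapped with sham, with IR8 at 1629 and IR5 at 1068 above all others. The means were 675 ± 424 in IR livers and 336 ± 35.7 in sham livers (SD, n = 9 each), a log2 difference of 0.81 ± 0.24 (SE; adjusted p = 0.0053). IR5 and IR8 are also the libraries that held both Xist and Y-linked transcripts, and without them the difference was 0.47 (adjusted p = 0.00874).

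Per2 (ENSMUSG00000055866, chromosome 1, 91415982 to 91459324, minus strand), by contrast, fell by 1.2 ± 0.13 on the log2 scale (SE; adjusted p = 7.95e-08). Its normalized counts were 89.9 in the lowest, 140.0 in the median and 205 in the highest IR library, against 254, 339 and 396 in sham livers, and no IR library reached the lowest sham library. Its means were 141 ± 31.6 in IR livers and 323 ± 56.5 in sham livers (SD, n = 9 each). Per3 (ENSMUSG00000028957, chromosome 4, 151003652 to 151044665, minus strand), which carries the D-boxes printed above, stood much further apart. Per3 had 12.03 in the lowest, 17.4 in the median and 53.3 in the highest IR library, against 413, 604 and 765 in sham livers, and the groups did not come near each other. Its means were 23.2 ± 13.8 in IR livers and 609 ± 101 in sham livers (SD, n = 9 each), 26.3 times higher in sham. Per3 fell by 4.81 ± 0.23 on the log2 scale (SE; adjusted p = 5.78e-13) and ranked 26 from the bottom of all tested genes. The whole of Per3 lies inside Camta1 on the same strand, a gene with 67.3 normalized counts in IR and 77.5 in sham. Reads that lie in both genes cannot be assigned from the table, which makes the low IR level of Per3 the less certain one.

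**Figure D2:**
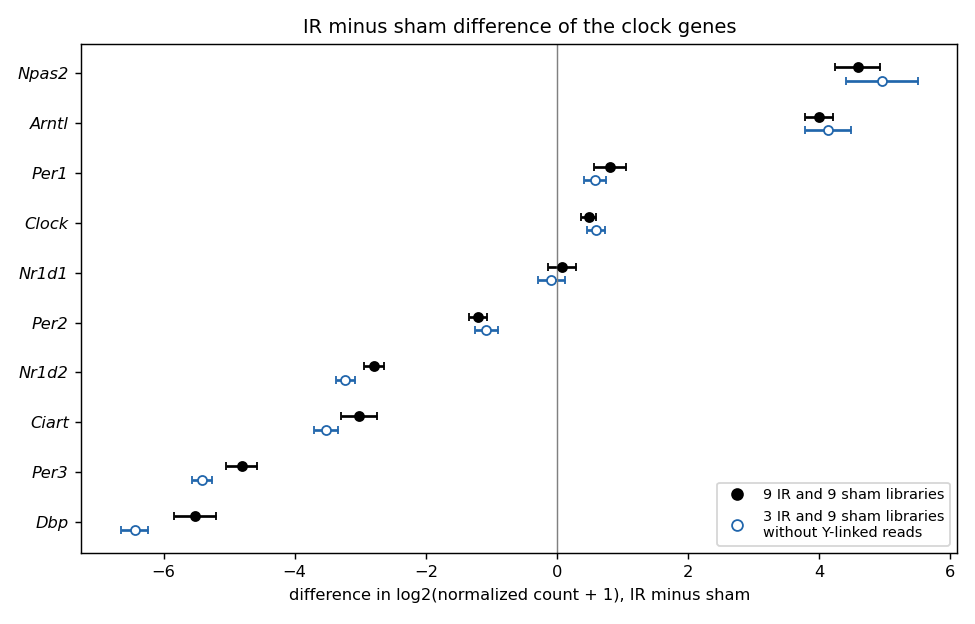
Log2 difference of IR minus sham for the 10 clock genes with its standard error, from all 18 libraries (filled) and from the 3 IR libraries without Y-linked reads against the 9 sham libraries (open). Npas2 and Arntl stand highest and Dbp and Per3 lowest in both, and Nr1d1 lies near 0.

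The REV-ERB genes, whose products repress Arntl and Npas2, parted from each other. Nr1d1 (ENSMUSG00000020889, chromosome 11, 98767932 to 98775333, minus strand) had 172 in the lowest, 369.8 in the median and 736 in the highest IR library, against 225, 315 and 481 in sham livers. The IR libraries spread over and beyond the range of the sham libraries, and IR8 at 736 and IR2 at 172 were the highest and lowest of all 18 libraries. The means were 380.2 ± 163 in IR livers and 345 ± 90.3 in sham livers (SD, n = 9 each), and the log2 difference of 0.07 ± 0.21 (SE; adjusted p = 0.758) did not pass the test. Over all alternative settings it ranged between -0.15 and 0.31 and never passed. Nr1d2 (ENSMUSG00000021775, chromosome 14, 18204054 to 18239127, minus strand) fell by 2.79 ± 0.15 on the log2 scale (SE; adjusted p = 3.16e-12). It had 91.9 in the lowest, 141 in the median and 234 in the highest IR library, against 902, 1049 and 1379 in sham livers. The groups were far apart, with means of 159 ± 47.4 in IR livers and 1078 ± 163 in sham livers (SD, n = 9 each), 6.76 times higher in sham. Nr1d1 overlaps its neighbour Thra by 1075 bases on the opposite strand (Thra 145 in IR and 96.1 in sham). Whether counting used the strand is not given in the sources used here.

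Dbp and Ciart, known direct targets of BMAL1, were both lower in IR. Dbp (ENSMUSG00000059824, chromosome 7, 45705088 to 45710203, plus strand) encodes a transcription factor that acts on D-boxes. It had 8.81 in the lowest, 22.5 in the median and 88.6 in the highest IR library, against 941, 1122 and 1688 in sham livers. Even the highest IR library, IR8, lay far below the lowest sham library. The means were 32.3 ± 26.1 in IR livers and 1222 ± 259 in sham livers (SD, n = 9 each), 37.8 times higher in sham. Dbp fell by 5.52 ± 0.33 on the log2 scale (SE; adjusted p = 9.04e-12) and ranked 14 from the bottom of all tested genes. Its neighbour Sphk2 overlaps it by 737 bases on the opposite strand, with 661 in IR and 366 in sham.

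Ciart (ENSMUSG00000038550, chromosome 3, 95878503 to 95882251, minus strand), the CHRONO gene whose window above holds 3 E-boxes, fell by 3.02 ± 0.28 on the log2 scale (SE; adjusted p = 4.80e-09). It had 10.8 in the lowest, 22.0 in the median and 73.7 in the highest IR library, against 143, 183 and 225 in sham livers. The groups did not overlap, and IR8 stood above the other IR libraries. The means were 25.7 ± 19.9 in IR livers and 179.9 ± 23.3 in sham livers (SD, n = 9 each), 7.0 times higher in sham. Ciart lies within the antisense gene C920021L13Rik, which had 6.07 in IR and 15.2 in sham, and without a stated strand setting their reads cannot be told apart.

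For each of the 7 genes without overlap an exact two-sided permutation test over the 18 libraries gave p = 4.11e-05, the smallest that 48620 assignments can give. Groups without overlap always give this value, so it adds nothing to the lack of overlap, which 40.2% of all tested genes shared. For the other clock genes that exact permutation test gave p = 0.000987 for Clock, 0.00407 for Per1 and 0.755 for Nr1d1. With the 3 IR libraries without Y-linked reads against all 9 sham libraries, the log2 differences were 4.14 for Arntl, 4.96 for Npas2, 0.59 for Clock and 0.58 for Per1. In that comparison they were -1.07 for Per2, -5.41 for Per3, -0.08 for Nr1d1, -3.23 for Nr1d2, -6.44 for Dbp and -3.52 for Ciart. The same 9 genes were called, in the same directions. Without IR5 and IR8 the values were 4.03 for Arntl, 4.65 for Npas2, 0.58 for Clock, -1.21 for Per2, -4.98 for Per3, -0.15 for Nr1d1, -2.90 for Nr1d2, -5.92 for Dbp and -3.36 for Ciart, again with the same 9 calls. The differences of Arntl, Npas2, Per3, Nr1d2, Dbp and Ciart were at least as large in both of these comparisons as over all 18 libraries.

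Levels of different genes were compared per kilobase of exon, as normalized counts divided by the merged exon length. In IR livers Nr1d1 (124 ± 52.9 per kb) and Per1 (119.9 ± 75.4) were the most abundant, and they did not differ beyond their spread (SD, n = 9). Next in IR came Nr1d2 (29.5 ± 8.76), Clock (24.7 ± 4.31), Per2 (24.1 ± 5.40) and Arntl (23.2 ± 4.11), each with a spread that overlapped its neighbour's. Ciart (11.4 ± 8.82), Npas2 (10.9 ± 4.63) and Dbp (10.8 ± 8.72) followed at like levels, and Per3 (2.41 ± 1.43) was the lowest. The order was different in sham livers. There Dbp (408 ± 86.4) was the highest, before Nr1d2 (199 ± 30.1), Nr1d1 (112 ± 29.3) and Ciart (79.6 ± 10.3). Per3 (63.4 ± 10.6), Per1 (59.6 ± 6.34) and Per2 (55.1 ± 9.65) did not differ beyond their spread in sham, and Clock (17.6 ± 2.62), Arntl (1.44 ± 0.744) and Npas2 (0.273 ± 0.239) closed the order.

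A scaling factor cancels from the ratio of 2 genes within a library, apart from the pseudocount of 1. Since these ratios are not per length, only their difference between the surgeries is read. The log2 ratio of Arntl to Dbp, an activator gene over one of its targets, was 2.72 ± 1.24 in IR (range 0.93 to 4.31) and -6.80 ± 0.64 in sham (range -8.03 to -6.13; SD, n = 9 each). These ranges are far apart, and the difference of 9.52 is the sum of an Arntl that was higher and a Dbp that was lower in IR. The log2 ratio of the paralogs Nr1d1 and Nr1d2 was 1.2 ± 0.62 in IR (range -0.17 to 1.93) and -1.67 ± 0.39 in sham (range -2.12 to -0.99; SD, n = 9 each). That of Per1 to Per2 was 2.08 ± 0.83 in IR (range 0.67 to 3.53) and 0.07 ± 0.29 in sham (range -0.24 to 0.64; SD, n = 9 each). Every IR library exceeded every sham library in both, though for Per1 to Per2 only narrowly. The log2 ratio of Per1 to Per3 was 4.77 ± 0.90 in IR (range 3.00 to 5.84) and -0.85 ± 0.33 in sham (range -1.25 to -0.26; SD, n = 9 each). That of the partners Arntl and Clock was -0.96 ± 0.28 in IR (range -1.48 to -0.45) and -4.47 ± 0.73 in sham (range -5.26 to -2.94; SD, n = 9 each). These 5 ratios were chosen after the values were seen, mostly from genes whose groups did not overlap, so they are a description and carry no test.

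**Figure D3:**
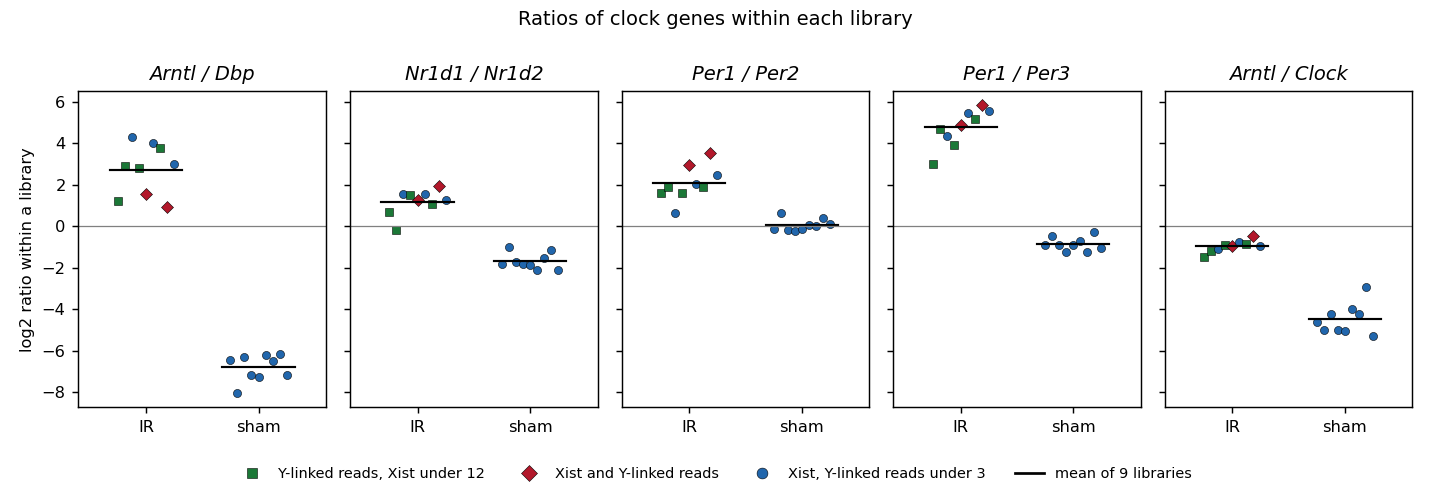
Log2 ratios of 5 pairs of clock genes within each library, with the 9 IR libraries left of the 9 sham libraries in each pair, a bar at the mean and marks by sex-linked transcripts as in the plot of levels. Arntl to Dbp shows the widest gap, with IR between 0.93 and 4.31 and sham between -8.03 and -6.13.

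The IR libraries varied more among themselves than the sham libraries for 8 of the 10 clock genes, as for 75.5% of all tested genes. The SD of log2 values of Dbp was 1.05 in IR, which exceeds that of 96.1% of tested genes, and 0.29 in sham, which exceeds that of 68.6%. Arntl was the reverse, with an SD of 0.26 in IR (above 36.3% of tested genes) and 0.63 in sham (above 96.0%), where few reads carried it. Npas2 was the other exception to the wider spread in IR. Per1 and Ciart also varied widely in IR, with SDs above those of 91.4% and 93.6% of tested genes.

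Other genes of the clock machinery were called at about the same rate as genes at large. Of 17 listed, 16 were tested (Rorb was not), 6 were higher in IR, 6 were lower and 4 were not called, and 7 did not overlap between the groups. Over all tested genes 38.3% were higher, 37.7% lower and 40.2% without overlap. Their median log2 difference was 0.00, against 0.02 for all tested genes, and its sign depended on the setting (between -0.44 and 0.24). The factors that share the D-box with DBP split. Nfil3, the D-box repressor, averaged 971 ± 211 in IR and 99.4 ± 12.8 in sham livers (SD, n = 9 each), a log2 difference of 3.25 ± 0.12 (SE; adjusted p = 3.18e-14). Tef and Hlf, the activators related to Dbp, were lower. Tef averaged 369 ± 142 in IR and 2141 ± 113 in sham livers, a difference of -2.62 ± 0.16 (SE; adjusted p = 1.35e-11). Hlf averaged 290.3 ± 85.7 in IR and 569 ± 65.5 in sham livers, a difference of -1.02 ± 0.14 (SE; adjusted p = 2.27e-06). The RORE activator gene Rora differed by -0.23 (adjusted p = 0.0304), a call that was lost without IR1, IR3, IR9, W5 or W7 (highest adjusted p = 0.0623). The kinase genes Csnk1e and Csnk1d, whose products phosphorylate PER proteins, were both higher. Csnk1e averaged 159 ± 66.2 in IR and 54.0 ± 12.6 in sham livers, a difference of 1.48 ± 0.19 (SE; adjusted p = 7.38e-07), and Csnk1d differed by 1.00.

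Arntl2, a paralog of Arntl, averaged 26.3 ± 9.0 in IR and 9.31 ± 2.72 in sham livers, a difference of 1.38 ± 0.22 (SE; adjusted p = 1.22e-05). Fbxl21, which encodes a ubiquitin ligase subunit that acts on CRY proteins, averaged 31.0 ± 16.8 in IR and 60.4 ± 11.2 in sham livers, a difference of -1.10 ± 0.26 (SE; adjusted p = 0.000635). That call was lost with the 3 IR libraries without Y-linked reads (-0.50, adjusted p = 0.0501). Timeless differed by 0.31 (adjusted p = 0.0223). Among the repressors that join PER, Cry1 was 0.55 higher (adjusted p = 0.0136), but 0.40 without IR5 and IR8 (adjusted p = 0.0581). Cry2, at -0.23, did not pass (adjusted p = 0.0744), although it did with the 3 IR libraries without Y-linked reads (-0.60, adjusted p = 7.08e-05). Bhlhe40, Bhlhe41 and Btrc did not pass either, at -0.08, 0.09 and 0.23, and Bhlhe40 was also called lower in that smaller comparison (-0.61, adjusted p = 0.00783). Without IR5 and IR8, Cry2 (-0.34), Bhlhe40 (-0.46) and Btrc (0.36) passed as well.

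**Figure D4:**
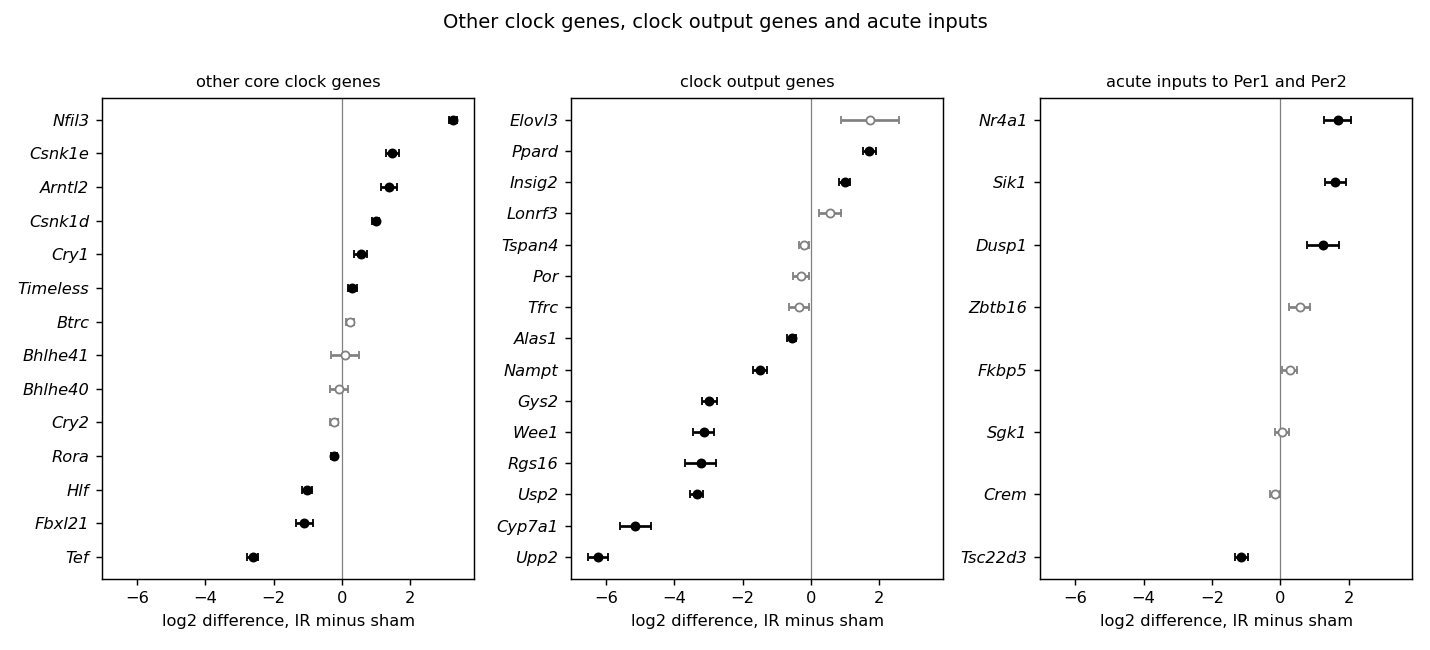
Log2 difference of IR minus sham, with standard error, of the genes named in the text from the 3 further lists, namely other core clock genes, clock output genes and acute inputs to Per1 and Per2, with filled marks for adjusted p under 0.05. Nfil3 is the highest of the core clock genes, and Upp2 and Cyp7a1 are the lowest of all genes shown.

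Among genes known to follow the clock in mouse liver, several of the metabolic ones were far lower in IR. Of 15, all tested, 2 were higher in IR, 8 were lower and 5 were not called, with a median of -0.56 against 0.02 for all tested genes, and 8 did not overlap. The 10 called compare with 76.0% called among all tested genes, of which 40.2% did not overlap. Upp2, a uridine phosphorylase gene, averaged 185 ± 136 in IR and 11530.2 ± 2346 in sham livers (SD, n = 9 each), a log2 difference of -6.23 ± 0.30 (SE; adjusted p = 5.71e-13). Cyp7a1, the gene of the rate-limiting enzyme of bile acid synthesis and a target of DBP, averaged 160.2 ± 123 in IR and 4406 ± 1743 in sham livers, a difference of -5.14 ± 0.45 (SE; adjusted p = 2.76e-09). These were the largest differences in the list. The deubiquitinase gene Usp2 averaged 58.6 ± 28.1 in IR and 559.8 ± 74.3 in sham livers, a difference of -3.34 ± 0.19 (SE; adjusted p = 4.76e-12). Wee1, a cell cycle kinase gene with E-boxes, averaged 25.5 ± 18.4 in IR and 189 ± 24.5 in sham livers, a difference of -3.14 ± 0.31 (SE; adjusted p = 1.58e-08). Rgs16, a regulator of G protein signalling, averaged 333 ± 447 in IR and 1916 ± 593 in sham livers, a difference of -3.23 ± 0.45 (SE; adjusted p = 1.83e-06). Its IR spread was larger than its IR mean.

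Metabolic output genes followed the same direction in part. Gys2, the liver glycogen synthase gene, averaged 599 ± 203 in IR and 4490.1 ± 1051 in sham livers, a difference of -2.97 ± 0.22 (SE; adjusted p = 2.86e-10). Nampt, whose enzyme makes a precursor of NAD, averaged 816 ± 388 in IR and 2086 ± 212 in sham livers, a difference of -1.48 ± 0.21 (SE; adjusted p = 1.81e-06). Alas1, the first enzyme of haem synthesis, differed by -0.56 (adjusted p = 0.000428). The nuclear receptor gene Ppard was higher instead, with 225 ± 91.1 in IR and 65.9 ± 14.6 in sham livers and a difference of 1.70 ± 0.19 (SE; adjusted p = 6.29e-08), and so was Insig2 at 0.98. Elovl3, a fatty acid elongase gene, did not pass (1.73 ± 0.84, adjusted p = 0.0688) and spread between 6.87 and 1123 in IR and between 23.0 and 58.0 in sham. Over the 3 IR libraries without Y-linked reads its difference was -1.78 (adjusted p = 3.40e-05), so its direction depends on which libraries are read. Lonrf3, Tfrc, Por and Tspan4 were not called, at 0.55, -0.35, -0.28 and -0.21, but Por (-0.52) and Tspan4 (-0.36) passed without IR5 and IR8. The hepatocyte marker Alb had a log2 difference of -1.80 and another, Hnf4a, of 0.72, and their part in these values was not tested.

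Per1 and Per2 are also induced outside the loop, by glucocorticoid and cyclic AMP. Of 8 genes that share those inputs, 3 were higher in IR, 1 was lower and 4 were not called, none was free of overlap, and the median was 0.43. Among all tested genes 76.0% were called, 40.2% did not overlap, and the median was 0.02. The cyclic AMP responders Nr4a1 and Sik1 were higher. Nr4a1 averaged 104 ± 113 in IR and 24.1 ± 11.9 in sham livers (SD, n = 9 each), a difference of 1.68 ± 0.39 (SE; adjusted p = 0.000541). Sik1 averaged 927 ± 663 in IR and 262 ± 82.3 in sham livers, a difference of 1.61 ± 0.31 (SE; adjusted p = 7.82e-05). Dusp1, a phosphatase gene that answers to both inputs, averaged 1176 ± 1293 in IR and 322 ± 102 in sham livers, a difference of 1.27 ± 0.47 (SE; adjusted p = 0.0192). That call was lost in the comparison of the 3 IR libraries without Y-linked reads (0.49, adjusted p = 0.306) and without IR5 and IR8 (0.66, adjusted p = 0.0807). The glucocorticoid responder Tsc22d3 went the other way, with 565 ± 196 in IR and 1189 ± 205 in sham livers and a difference of -1.14 ± 0.19 (SE; adjusted p = 1.35e-05). Fkbp5, Sgk1, Zbtb16 and Crem were not called, at 0.28, 0.05, 0.58 and -0.16, although Zbtb16 passed over the 3 IR libraries without Y-linked reads (0.78, adjusted p = 0.0403).

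Finally, relations between clock genes were examined among libraries of 1 surgery, where the difference between surgeries plays no part. Over 12 pairs in each of the 2 groups, an exact permutation test gave p under 0.05 for 3 pairs in IR and 2 in sham, and none passed after adjustment over the 24 relations. In the 9 IR libraries Arntl and Npas2 had Pearson's r = 0.82 (exact permutation p = 0.00493, adjusted 0.0591) and Spearman's rho = 0.72 (exact permutation p = 0.0369, adjusted 0.319). Arntl and Per3 had r = -0.84 (exact permutation p = 0.00326, adjusted 0.0591) and rho = -0.65 (exact permutation p = 0.0666, adjusted 0.319). Arntl and Dbp had r = -0.67 (exact permutation p = 0.0471, adjusted 0.226) and rho = -0.67 (exact permutation p = 0.0589, adjusted 0.319). Without the 2 libraries farthest from the median of Arntl, r was 0.83 with Npas2, -0.66 with Per3 and -0.69 with Dbp. Without IR5 and IR8 r was 0.89 with Npas2, -0.86 with Per3 and -0.88 with Dbp. With libraries scaled to equal totals r was 0.79 with Npas2, -0.68 with Per3 and -0.33 with Dbp, so the relation with Dbp depends on the scaling.

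In the 9 sham libraries the same pairs had r = -0.54 with Npas2, -0.45 with Per3 and 0.19 with Dbp, at the low read numbers of Arntl and Npas2 given above. Of the 12 tested pairs, Nr1d1 with Dbp, both BMAL1 targets, had the strongest r in sham, at 0.79 (exact permutation p = 0.0124, adjusted 0.099). Its rho was 0.73 (exact permutation p = 0.0311, adjusted 0.319), and r was 0.77 without the 2 farthest libraries. The same pair had r = 0.59 in IR (exact permutation p = 0.0952), and -0.03 without IR5 and IR8, on which the IR value therefore rests. Some pairs outside the 12 were about as strong in sham, such as Clock with Nr1d2 (0.77) and with Per1 (-0.77). In IR, Per3 with Nr1d2, also outside the 12, had r = 0.89. Per2 and Dbp had r = -0.73 in sham (exact permutation p = 0.0275, adjusted 0.165) and -0.35 without the 2 farthest libraries, so that value rests on them. Whether any relation differed between the surgeries was not tested. The 4 IR libraries with Y-linked transcripts alone and the 3 with Xist alone were too few for an r of their own.

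**Figure D5:**
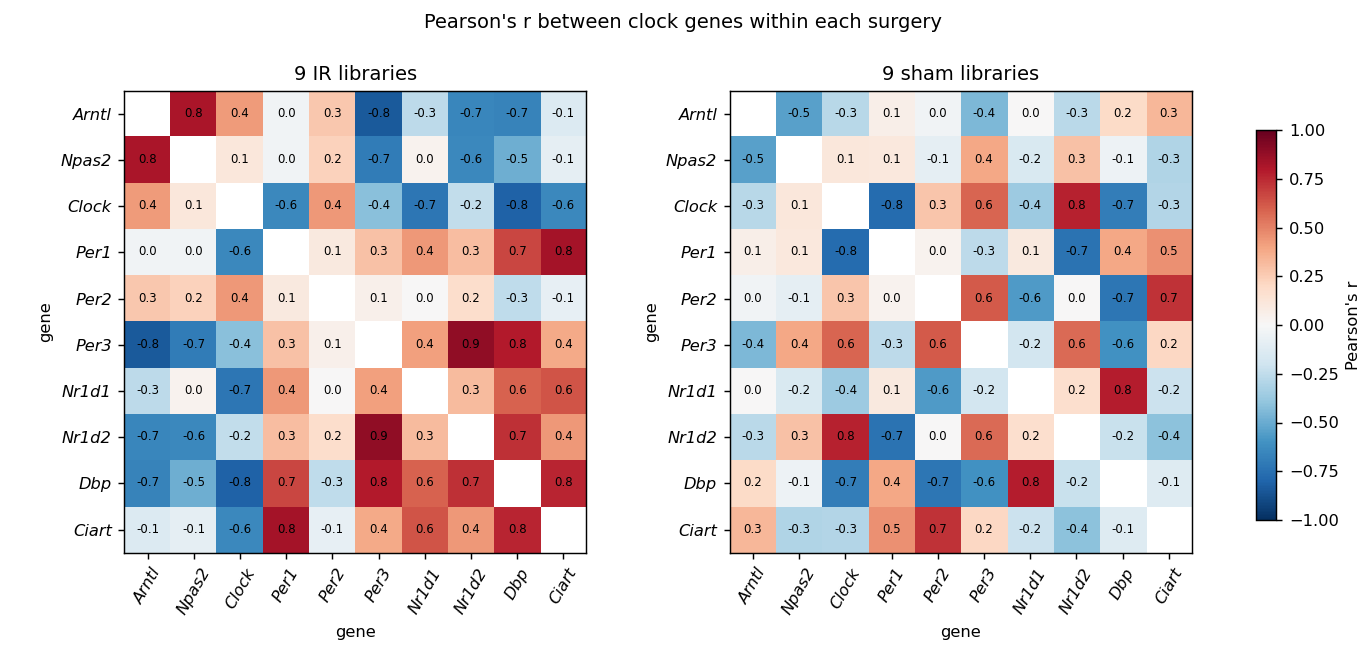
Pearson's r between each pair of the 10 clock genes over the 9 IR libraries (left) and the 9 sham libraries (right), on log2(normalized count + 1), as a description without tests. Arntl with Npas2 (0.82) and Arntl with Per3 (-0.84) are the strongest of the 12 tested pairs in IR, and Nr1d1 with Dbp (0.79) in sham.

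For the 2 genes that oppose each other in the loop, Arntl and Nr1d1, the genes with the most similar pattern were sought over the 18 libraries after each surgery's mean had been removed. Among 9844 genes with a mean of at least 50, the highest r with Arntl were those of Robo1 (0.76), Naaa (0.75), Plekhb2 (0.73), Ankrd40 (0.71) and Gtpbp8 (0.69), and among the lowest were those of Slc37a1, Akap8l and Plcg1 (-0.67 each) and Ces3b (-0.66). For the 5 highest, in that order, r was 0.37, 0.35, 0.38, 0.74 and 0.58 in IR alone. In sham alone it was 0.88, 0.86, 0.90, 0.78 and 0.90, where Arntl rested on 5 to 21 reads per library. The lowest named were also stronger in sham than in IR. The highest r with Nr1d1 were those of Dennd1c (0.81), Gng11 (0.77), Tm4sf1 and Fam43a (0.76 each) and Dedd2 (0.75), and the lowest those of Ncapd3 (-0.78), Smcr8, Mgme1 and Chd9 (-0.75 each) and Lipa (-0.74). Npas2 was under that mean and was not ranked, and none of the other clock genes was among those named. Of the clock genes, Dbp had r = 0.59, Ciart 0.50 and Clock -0.59 with Nr1d1, and Per3 had -0.44 with Arntl. The libraries share their scaling and depth, and these values are a description chosen as extremes.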

How the data were processed

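RNA was extracted from liver and made into sequencing libraries, per the labels' protocols. Per the submitters' processing notes, Trimmomatic 0.33, STAR 2.5.0a and DESeq2 1.14 were used with GRCm38. The counting tool, strand setting, gene annotation and filters were not given in the sources used here. The deposited signal is a gene count divided by a DESeq2 size factor, by the table's name, and is called a normalized count here. Values up to 1000 reads came back as whole reads in 100% of cases (tolerance 0.01 reads), so reads were recovered for count tests. Size factors were 0.956 to 1.34 in IR and 0.866 to 1.01 in sham.

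Symbols and coordinates (1-based) come from GENCODE vM21 on GRCm38, which named 47224 of 47729 identifiers, and promoters from RefSeq. The comparison used limma 3.58.1 (R 4.3.3) with a mean trend on log2(normalized count + 1), 9 IR against 9 sham libraries without covariates, on genes with a mean of at least 10, with Benjamini-Hochberg adjustment. The limma step was tested on simulated data in which few genes differed and both groups spread alike. These data depart from that in both respects, so the simulation does not cover their setting. Log2 fold changes of low genes are understated on this scale. Single genes and correlations were tested with exact permutations (Python 3.11.15). Alternatives were edgeR 4.0.16 and DESeq2 1.42.0 on recovered reads, other scalings, pseudocounts and filters, array weights, a block by header number, leaving out each library, and 2 sets of libraries by sex-linked transcripts. No source says that the samples came from separate cages or days, so p-values measure the spread between these libraries only.

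The clock genes, gene lists and pairs were chosen with earlier results of these data known. All clock genes are named, as are list genes that passed with an absolute log2 difference of at least 1, up to 4 smaller ones per list, and the 5 highest and 5 lowest r for Arntl and Nr1d1. The remaining list genes are given by their difference only. Of the other marker lists, the counts higher and lower in IR were 2 and 3 of 5 macrophage genes and 1 and 3 of 5 endothelial genes. They were 3 and 0 of 4 cholangiocyte, 2 and 2 of 4 stellate, 0 and 4 of 4 lymphocyte and 0 and 0 of 3 erythroid genes. Among all tested genes 38.3% were higher and 37.7% lower. Genotypes were not compared, since no column carries one. A few genes of these lists and rankings are not reported here, and the counts include them.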

Additional observations from a re-analysis of the deposited data

Results flagged for a closer look

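Of 20 groups of 9 libraries (10 clock genes in each surgery), 2 held a library far from the others by Dixon's criterion. The criterion was applied to normalized counts and not to the log2 values used in the tests. Chance alone marks about 1 group in 20 if values spread normally, which was not checked for these counts. Ciart in IR8 was at 73.7 normalized counts, where the next IR library had 33.8 and the lowest 10.8, so that the gap took 0.634 of the range. IR8 also had the highest Per1, Nr1d1 and Dbp of the IR libraries and held both Xist and Y-linked transcripts. The part of that mixture in its clock values was not tested. Without IR5 and IR8 the log2 difference of Ciart was -3.36, against -3.02 with them. Arntl in W8, a sham library, was at 23.0, where the next sham library had 13.5 and the lowest 5.11, a gap of 0.534 of the range. W8 still lay below all 9 IR libraries, the lowest of which had 119.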

How the results depend on the processing

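The 10 clock genes kept their calls under all 30 alternative fits, 18 of which left out 1 library, with 4 higher, 5 lower and Nr1d1 not called, except that Npas2 was not tested where a mean of 50 was required. The sign of Nr1d1 varied. On recovered reads, edgeR called 4924 genes higher and 4767 lower, and DESeq2 5009 and 4713. Clock output genes higher in IR numbered 4 in place of 2 with edgeR, with DESeq2 and with equal totals, which added Elovl3 and Lonrf3. Relations within IR that passed adjustment numbered between 0 and 1 when each library was left out, the 1 being Arntl with Per3 without IR9 (r = -0.93, exact permutation, adjusted p = 0.0214). Without IR1, the IR library with the lowest Arntl and the highest Per3, r of that pair was -0.67 (exact permutation, adjusted p = 0.381). It was -0.84 over all 9 IR libraries. The median of other core clock genes lay between -0.44 and 0.24 over the alternatives, and that of clock output genes was -1.02 with a mean of at least 50 and -1.47 without libraries with Y-linked reads. The filter left out Lonrf3 (33.6 in IR and 19.8 in sham), and without the libraries with Y-linked reads Elovl3 went from 1.73 to -1.78. Each moved the middle of the output list from Alas1 (-0.56) toward Nampt (-1.48 over all 18 libraries). Why the median of other core clock genes moved was not tested. With the header number as a replicate block, 4821 genes were higher and 4751 lower, against 4860 and 4781 without it, and the calls of the clock genes were the same. Deviations of same-numbered libraries correlated at -0.10 to 0.12, over 0.1 for 1 of 9 pairs, and no IR library correlated best with its own number. The headers do not say what the number stands for, so these values cannot decide whether same-numbered libraries were linked. Sham levels of Npas2 and Arntl rest on few reads, and depth limits their folds.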
